A study of Mus musculus with 6 samples.

Results

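The 10 genes described here encode C-type lectin receptors of myeloid cells and were chosen by name: Clec12a, Clec4a1, Clec4a2, Clec4a3, Clec4d, Clec4e, Clec4n, Clec5a, Clec7a and Clec10a. All 10 were found among the 35237 genes of the FPKM table and among the 36536 entries of the ALEXA-Seq table. Of these, 9 stood under the listed symbol, and Clec10a stood under its older symbol Mgl1 and was matched by its Ensembl identifier. FPKM are fragment numbers scaled by the length of a gene's exons and by the mapped fragments of the library, so levels of different genes can be set side by side per length.

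C-type lectin receptors are transmembrane proteins whose extracellular lectin-like domain binds sugars of microbes or ligands released by damaged cells. One branch activates the kinase Syk, either through a motif in the receptor's own tail, as in Clec7a (Dectin-1), or through the adaptors FcRgamma, encoded by Fcer1g, and DAP12, encoded by Tyrobp. Another branch, with Clec12a and Clec4a2, carries an inhibitory tail motif (ITIM) that recruits the phosphatases encoded by Ptpn6 and Ptpn11. In mice most of these genes lie in a pair of clusters on chromosome 6, and they are known above all from monocytes, macrophages, neutrophils and dendritic cells.

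The expression of these genes was compared between monocytes of the bone marrow (BMDM) and microglia of the brainstem (BSM). The sort gates were CD11b+, CD115+, Ly6G- and CD45high for BMDM, and CD11b+, Ly6G-, CD45low and CD115low for BSM. Both came from C57BL/6 mice at 6 weeks of age, and each of the 3 BMDM and 3 BSM libraries was made from sorted cells pooled over several mice. By the labels and the supplement of the study, replicate 1 was male and replicates 2 and 3 were female in either group. The Results text of the study names male mice. The labels call the libraries of a group biological replicates, and the study describes these as independently generated. RNA was amplified by the Ovation RNA-Seq method and sequenced in paired ends, and a lower value in such bulk libraries cannot tell fewer expressing cells from less RNA per cell.

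The libraries matched their labels by marker genes. The 7 microglia markers reported, among them P2ry12, Tmem119 and Sparc, summed to 708 to 777 FPKM in BSM and to 7.22 to 8.92 FPKM in BMDM. The 6 monocyte markers, with Ccr2 and Ly6c2, summed to between 691 and 879 FPKM in BMDM and to between 0.959 and 1.62 in BSM. BMDM replicate 2 stood apart by granulocyte markers, of which 9 of 10 reached 3 FPKM in a BMDM library. The 10 summed to 521 FPKM there, to 61.6 and 103 in BMDM replicates 1 and 3, and to at most 0.139 in BSM. Ly6g, whose protein was gated out in the sort, was the marker below 3 FPKM, at 0, 0.293 and 0 in BMDM replicates 1 to 3. Mpo had 181 FPKM in BMDM replicate 2, and 32.7 and 67.1 in replicates 1 and 3. The lymphocyte markers, with Nkg7 at 5.33 FPKM, also had their highest sum in BMDM replicate 2, 8.53 FPKM against 0.501 and 1.34 in BMDM replicates 1 and 3. BSM replicate 1 stood apart by its values of 0, with 472 of the 6364 tested genes (7.42%) listed at 0, against 51 to 115 in the other libraries. The supplement of the study also lists the RNA of BSM replicate 1 with a far lower integrity number than the others and with the lowest RNA concentration. FPKM summed over all genes were 2.50 times higher in BMDM than in BSM, and the median log2 fold change of the tested genes was 0.81, so the distance from that median is given beside the unscaled FPKM fold changes of the receptors, adaptors, phosphatases and Syk. The median of the tested ALEXA-Seq fold changes was 0.84.

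Of the 10 genes, 7 reached 3 FPKM in at least 1 library and were tested, and 6 of these 7 were higher in BMDM by limma with Benjamini-Hochberg adjustment over all 6364 genes: Clec12a, Clec4a1, Clec4a2, Clec4a3, Clec7a and Clec10a. Among all tested genes 45.3% were called higher in BMDM. Clec12a, Clec4a1, Clec7a and Clec10a reached 3 FPKM in BMDM libraries only, with at most 0.531, 1.30, 1.09 and 0.165 FPKM in BSM. The minimum thus admitted these genes through the group in which they were called higher, so their calls are not independent of it. None of the 7 was called higher in BSM, where 9.22% of all tested genes were, and limma gave 0 of them at an unadjusted p under 0.05. The median log2 fold change of the 7 was 2.28. Without BMDM replicate 2 the count was 5 of 7, with Clec4a2 lost, and without BSM replicate 1 it was 6 of 7. In the ALEXA-Seq values 5 of 7 were called higher in BMDM, all but Clec4a2 of the 6 above, beside 37.1% of all tested genes, and none in BSM, beside 10.9%. The ALEXA-Seq genes were taken by their highest signal in any library. Clec12a, Clec4a1, Clec7a and Clec10a had at most 1.90, 33.2, 22.6 and 2.50 in BSM, while Lyve1, at up to 34.8, was left out. These receptors thus entered through BMDM, so their ALEXA-Seq calls are not independent of that choice either. Clec4d, Clec4e and Clec4n did not reach the minimum in any library. By FPKM all 3 BMDM libraries lay above all 3 BSM libraries for 6 of the 7 tested genes, against 55.2% of all tested genes, and Clec5a was the exception. They also did so for Clec4d, Clec4e and Clec4n, where every BSM library was listed at 0 FPKM. In the ALEXA-Seq values Clec5a was again the exception among the 10 genes. No share over all genes was taken for ALEXA-Seq or for genes under the minimum.

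**Figure D1:**
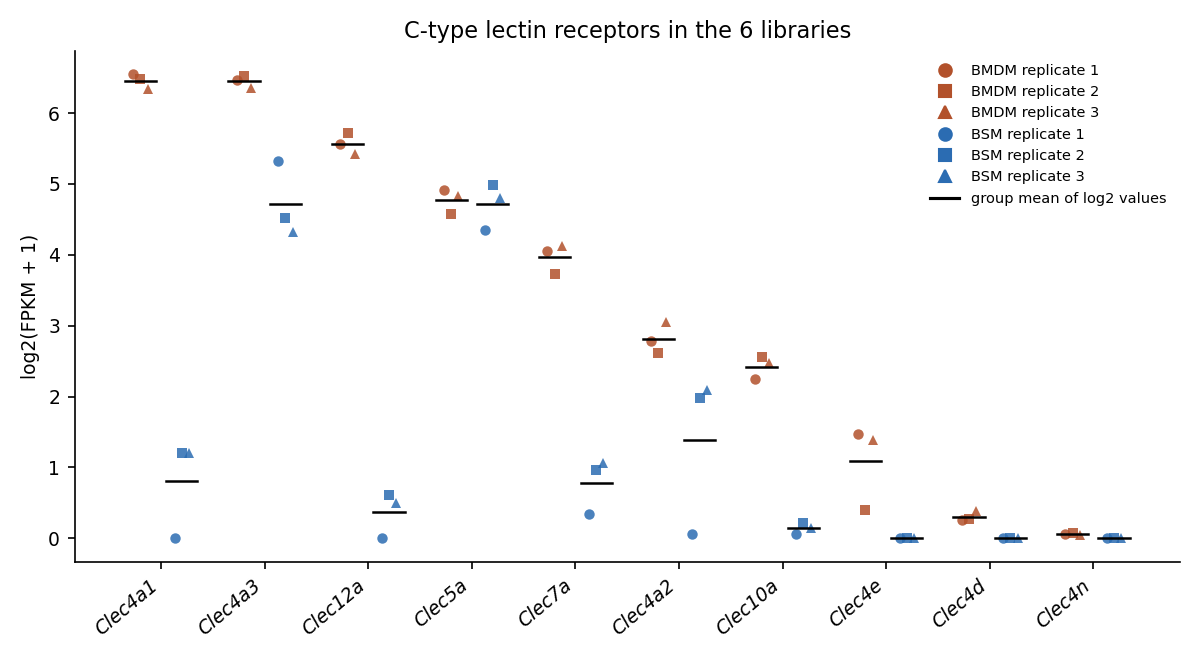
Level of each receptor gene as log2(FPKM + 1) on the vertical axis, for the 3 BMDM libraries (brown) and the 3 BSM libraries (blue), with symbols for the replicates and a black line for the group mean of the log2 values. Clec5a is the gene whose groups overlap, Clec4a3 is high in both groups, and Clec4a1 and Clec12a have the widest gaps.

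The windows around the transcription start are shown for 4 receptors, namely Clec12a and Clec4a1, with the widest gaps between the groups, and Clec5a and Clec4a3, with the highest levels in BSM. Each runs from 250 bases before to 50 bases after a start in RefSeq (build GRCm38.p6), and capitals mark GAGGAA on either strand (TTCCTC where it lies on the opposite strand), the core letters of sites of the myeloid factor PU.1. Clec12a is at chr6:129349994-129350293 on the + strand, Clec4a1 at chr6:122921598-122921897 on the + strand, Clec4a3 at chr6:122952394-122952693 on the + strand for the second of its 2 listed starts, and Clec5a at chr6:40585756-40586055 on the - strand.
Clec12a: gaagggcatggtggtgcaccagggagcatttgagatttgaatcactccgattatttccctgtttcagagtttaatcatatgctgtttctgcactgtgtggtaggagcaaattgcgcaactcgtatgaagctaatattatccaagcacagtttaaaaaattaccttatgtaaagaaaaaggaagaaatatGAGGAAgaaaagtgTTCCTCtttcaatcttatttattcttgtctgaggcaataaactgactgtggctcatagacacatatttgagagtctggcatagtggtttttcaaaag
Clec4a1: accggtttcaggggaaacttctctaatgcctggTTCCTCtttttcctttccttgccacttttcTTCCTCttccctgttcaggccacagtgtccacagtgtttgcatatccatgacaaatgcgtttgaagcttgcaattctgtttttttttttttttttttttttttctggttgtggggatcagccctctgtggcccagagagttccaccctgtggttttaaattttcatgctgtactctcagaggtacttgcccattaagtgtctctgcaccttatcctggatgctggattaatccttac
Clec4a3: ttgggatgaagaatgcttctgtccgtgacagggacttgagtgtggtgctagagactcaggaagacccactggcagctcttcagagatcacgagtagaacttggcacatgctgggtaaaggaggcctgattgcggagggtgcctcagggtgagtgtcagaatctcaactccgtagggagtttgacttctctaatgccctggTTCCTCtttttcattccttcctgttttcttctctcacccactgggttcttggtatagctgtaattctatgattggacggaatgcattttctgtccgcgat
Clec5a: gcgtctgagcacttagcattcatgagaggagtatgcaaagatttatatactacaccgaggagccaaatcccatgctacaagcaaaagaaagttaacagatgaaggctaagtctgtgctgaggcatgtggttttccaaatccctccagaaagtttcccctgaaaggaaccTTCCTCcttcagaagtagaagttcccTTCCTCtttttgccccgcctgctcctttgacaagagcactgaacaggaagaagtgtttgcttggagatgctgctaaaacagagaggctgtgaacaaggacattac

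RefSeq promoter windows were matched for 8 of the 10 genes by symbol, all but Clec4n and Clec10a. GAGGAA occurred on either strand in 6 of these 8, taking the first listed start of each gene, and in 28.3% of the 27025 promoter windows of the same length. Relative to the listed start it began at -61 and -47 in Clec12a, at -217 and -187 in Clec4a1, and at -81 and -55 in Clec5a. The letters were not in the window of Clec4a2 nor in that of the first listed start of Clec4a3. Binding of PU.1 was not measured, and a part of these letters in the levels was not tested. The windows of Clec4a1 and of the second start of Clec4a3 shared a run of 17 bases that holds the motif, cctggTTCCTCtttttc, the longest of 43 pairs of windows compared between different receptors. TATAAA, searched on either strand, was present in 4 of the 8 windows, against 14.2% of all windows. Clec7a held it in the window of the first of its 2 listed starts and not in that of the second. The distance of TATAAA from the start was not taken into account, so the count is not one of TATA boxes.

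Among the receptors with an inhibitory tail motif, Clec12a was high in BMDM and close to 0 in BSM. Clec12a (chr6:129292709-129315321, build mm9, as all gene positions below) encodes a receptor that binds uric acid crystals and dampens myeloid activation. Its FPKM were 46.2, 51.5 and 42.1 in BMDM replicates 1 to 3, and 0.531 and 0.409 in BSM replicates 2 and 3, with replicate 1 listed at 0. The groups did not overlap, and the ratio of the mean FPKM was 149, or 99.1 without BSM replicate 1. The log2 fold change was 5.20 ± 0.25 (SE, the standard error of the fit, limma adjusted p = 5.26e-06), which is 4.39 above the median of all genes. Its ALEXA-Seq values were 223, 297 and 215 in BMDM and 1.09 and 1.90 in BSM replicates 2 and 3, again with 0 in replicate 1, a log2 fold change of 7.06 ± 0.49 (SE, limma adjusted p = 0.000101).

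Clec4a2 (chr6:123073410-123094017) encodes DCIR, the other receptor here with an inhibitory motif, which recruits phosphatases in dendritic cells and monocytes. It was measured at 5.90, 5.13 and 7.27 FPKM in BMDM and at 0.0469, 2.95 and 3.28 FPKM in BSM. The groups did not overlap, but BSM replicates 2 and 3 had a mean 66.3 times the value of replicate 1. The log2 fold change of 1.44 ± 0.52 (SE, limma adjusted p = 0.0484) passed the threshold narrowly and was 0.63 above the median of all genes. Without BSM replicate 1 it was 0.78 (limma adjusted p = 0.0162), which is 0.08 above the median of that fit. The call held under 6 of 16 alternatives, and was lost under each of the 3 further scalings and without any one of the BMDM libraries. In ALEXA-Seq, where it stood at 101, 122 and 120 in BMDM and at 1.81, 61.6 and 63.1 in BSM, the log2 fold change of 2.36 ± 1.17 (SE) had a limma adjusted p of 0.134, and without BSM replicate 1 it was 0.86 with a limma adjusted p of 0.00686. Matches of at least 95% identity to Clec4b1 covered 17.6% of its longest transcript, so part of its value could be shared with that gene.

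Clec4a1 and Clec4a3, neighbouring genes of the DCIR family whose ligands are less well known, had overlapping FPKM in BMDM and separate FPKM in BSM. Clec4a1 (chr6:122871866-122884637) had 92.8, 88.5 and 79.8 FPKM in BMDM and 0.00679, 1.29 and 1.30 FPKM in BSM. Clec4a3 (chr6:122902533-122919893) had 87.8, 91.3 and 81.1 FPKM in BMDM and 39.1, 21.9 and 18.9 FPKM in BSM. Neither gene had overlapping groups, and BSM replicate 1 was the lowest BSM library for Clec4a1 and the highest for Clec4a3. The mean FPKM of Clec4a1 was 100.4 times higher in BMDM (67.1 times without BSM replicate 1), with a log2 fold change of 5.65 ± 0.35 (SE, limma adjusted p = 1.72e-05). For Clec4a3 the ratio was 3.26 (4.25 without BSM replicate 1), with a log2 fold change of 1.73 ± 0.30 (SE, limma adjusted p = 0.0021), 0.93 above the median of all genes where Clec4a1 was 4.85 above it. Within a library, Clec4a3 was 0.947, 1.03 and 1.02 times Clec4a1 in BMDM, and 16.9 and 14.6 times Clec4a1 in BSM replicates 2 and 3, while in BSM replicate 1 Clec4a1 was near 0. This ratio did not overlap between the groups, and an exact permutation test of 3 against 3 libraries gave p = 0.1, the smallest p it allows.

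The ALEXA-Seq values also showed the wider gap between the groups for Clec4a1. Clec4a1 stood at 1927, 2253 and 1702 in BMDM and at 0.145, 33.2 and 31.0 in BSM, a log2 fold change of 7.50 ± 1.25 (SE, limma adjusted p = 0.0032). Clec4a3 stood at 1261, 1307 and 1180 in BMDM and at 602, 337 and 308 in BSM, a log2 fold change of 1.65 ± 0.28 (SE, limma adjusted p = 0.00341). Unlike in FPKM, the values of these genes did not overlap in BMDM, where Clec4a3 was 0.655, 0.580 and 0.694 times Clec4a1. For neither gene did a match of at least 95% identity over 100 bases to another gene's transcript turn up.

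Among the activating receptors, Clec7a was low in BSM and Clec5a was not. Clec7a (chr6:129411611-129422790) encodes Dectin-1, the receptor of fungal beta-glucans, which signals through its own tail and is known in the brain from microglia around amyloid plaques. Its FPKM were 15.5, 12.3 and 16.5 in BMDM and 0.265, 0.942 and 1.09 in BSM, with no overlap and BSM replicate 1 lowest. The mean was 19.3 times higher in BMDM, and 14.5 times without BSM replicate 1. The log2 fold change was 3.18 ± 0.28 (SE, limma adjusted p = 7.98e-05), 2.38 above the median of all genes. ALEXA-Seq placed it at 278, 247 and 292 in BMDM and at 9.14, 20.9 and 22.6 in BSM, a log2 fold change of 3.97 ± 0.38 (SE, limma adjusted p = 0.000284).

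Clec5a (chr6:40524897-40535804), which lies far from both clusters and encodes a receptor that signals through DAP12 and is known for binding flaviviruses, was the gene of the 10 whose groups overlapped. It had 29.2, 22.8 and 27.4 FPKM in BMDM and 19.4, 30.8 and 27.0 FPKM in BSM. The highest and the lowest of the 6 values were both BSM libraries. The log2 fold change was 0.06 ± 0.25 (SE, limma adjusted p = 0.861), with a 95% interval from -0.53 to 0.64, and relative to the median of all genes it was -0.75. In ALEXA-Seq it stood at 393, 307 and 355 in BMDM and at 314, 448 and 385 in BSM, also overlapping, with a log2 fold change of -0.11 ± 0.21 (SE, limma adjusted p = 0.681) and a 95% interval from -0.61 to 0.39. By rank within a library, Clec5a lay at percentiles of 85.9 to 90.9 among the tested genes in BMDM and of 91.1 to 94.9 in BSM.

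The 3 receptors of the Dectin-2 cluster that pair with FcRgamma were low in BMDM and listed at 0 FPKM in BSM. Clec4e (chr6:123231807-123239889) encodes Mincle, a receptor of mycobacterial cord factor, and was measured at 1.77, 0.322 and 1.61 FPKM in BMDM. Clec4d (chr6:123212135-123225283), whose protein MCL associates with Mincle, was at 0.201, 0.205 and 0.310 FPKM, and Clec4n (chr6:123179861-123197039), encoding the mannan receptor Dectin-2, was at 0.0432, 0.0581 and 0.0363 FPKM. With each BSM library at 0 for all 3 genes, no ratio of the means is given. BMDM replicate 2, the library with the highest granulocyte and lymphocyte marker sums, had the lowest Clec4e of the BMDM libraries, and the part of that library's make-up in this was not tested. The ALEXA-Seq values in BMDM were 23.2, 4.02 and 21.9 for Clec4e, 3.65, 3.88 and 6.77 for Clec4d, and 1.56, 1.24 and 0.719 for Clec4n, and those in BSM were 0 except for 0.180 for Clec4d in replicate 3. When genes were tested without a minimum, 7 of the 10 receptors were called higher in BMDM by FPKM, beside 14.9% of 21167 genes. They included Clec4d (limma adjusted p = 0.00637) and Clec4n (limma adjusted p = 0.0132), while Clec4e had a limma adjusted p of 0.0676. Clec4e was called with a minimum of 1 FPKM (limma adjusted p = 0.023) and by ALEXA-Seq without a minimum (limma adjusted p = 0.0198). Their fitted fold changes depend on the pseudocount and are not given.

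Clec10a (chr11:69980125-69984336), the gene of the 10 outside chromosome 6, encodes the galactose-type lectin MGL1 of macrophages and dendritic cells. Its FPKM were 3.75, 4.87 and 4.53 in BMDM and 0.0426, 0.165 and 0.106 in BSM, without overlap. The ratio of the means was 42.0, or 32.4 without BSM replicate 1, and the log2 fold change was 2.28 ± 0.26 (SE, limma adjusted p = 0.000293), 1.48 above the median of all genes. The ALEXA-Seq values of 43.6, 58.2 and 58.2 in BMDM and of 0.548, 2.50 and 1.48 in BSM gave a log2 fold change of 4.50 ± 0.49 (SE, limma adjusted p = 0.000511). Copies of at least 95% identity in Mgl2 covered 31.7% of its longest transcript, and Mgl2 itself had 0.270, 3.11 and 0.697 FPKM in BMDM and at most 0.266 in BSM. Both genes had their highest FPKM in BMDM replicate 2, and the part of reads shared with Mgl2 in the Clec10a values was not tested.

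The order of the receptors differed between the cell types. By mean FPKM, Clec4a1 (87.0) and Clec4a3 (86.8) led in BMDM and did not differ beyond their spread, followed without overlap between neighbours by Clec12a, Clec5a, Clec7a, Clec4a2 and Clec10a, with Clec4e, Clec4d and Clec4n below these. The ALEXA-Seq order in BMDM was not the same. There Clec4a1 (1702 to 2253) lay above Clec4a3 (1180 to 1307) without overlap. Clec12a had a lower ALEXA-Seq mean (245) than Clec5a (352) and Clec7a (272), and its range overlapped that of Clec7a. In BSM, Clec4a3 (26.6) and Clec5a (25.7) overlapped each other and lay above all others, and the ranges of Clec4a2, Clec4a1, Clec7a, Clec12a and Clec10a overlapped from each to the next. The 10 genes summed to 283, 277 and 261 FPKM in BMDM and to 58.9, 58.6 and 52.1 FPKM in BSM, a ratio of the means of 4.84, against 2.50 for the sum of all genes. Clec5a made up 9.69% ± 1.25 (SD, n = 3) of this sum in BMDM and 45.8% ± 11.1 (SD, n = 3) in BSM. Clec4a3 made up 31.7% ± 1.10 (SD, n = 3) and 46.7% ± 17.1 (SD, n = 3). Together Clec4a3 and Clec5a took 41.2% to 41.6% of the sum in each BMDM library and 88.1% to 99.4% in each BSM library. Clec4a1 made up 31.8% ± 1.08 (SD, n = 3) in BMDM against 0.0115%, 2.21% and 2.49% in the BSM libraries. Shares in BMDM depended on the quantification. By ALEXA-Seq the mean share of Clec4a1 was 45.8%, and that of Clec12a was 5.72%, against 17.0% for Clec12a by FPKM.

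**Figure D2:**
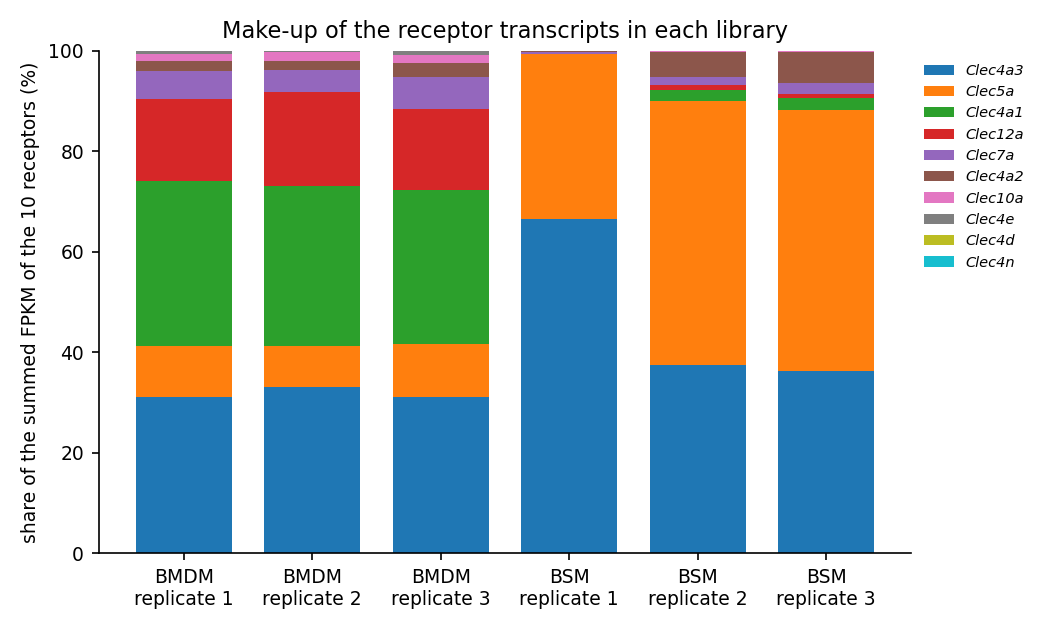
Share of each receptor gene in the summed FPKM of the 10 genes (vertical axis, percent), with 1 bar for each library. The BMDM bars are alike and divided among Clec4a3, Clec4a1, Clec12a, Clec5a and Clec7a, whereas Clec4a3 and Clec5a fill between 88.1% and 99.4% of each BSM bar, and BSM replicate 1 holds almost nothing else.

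BSM replicate 1 was the lowest BSM library for Clec12a, Clec4a1, Clec4a2, Clec5a, Clec7a and Clec10a and the highest for Clec4a3. The 7 perivascular macrophage markers summed to 0.544 FPKM in that library and to 4.67 and 2.59 in BSM replicates 2 and 3, against 1.97 to 2.94 in BMDM. Of these markers none reached 3 FPKM in any library, and Lyve1 stood at 0 in BSM replicate 1 and at 1.87 and 0.565 in replicates 2 and 3. The monocyte marker sum was 1.62 FPKM in BSM replicate 1 and 1.18 and 0.959 in replicates 2 and 3. F13a1 alone had 1.54 FPKM in BSM replicate 1, and 0.543 and 0.253 in replicates 2 and 3. Ccr2 went the other way, with 0.0129 FPKM in BSM replicate 1 and 0.408 and 0.366 in replicates 2 and 3. Chi3l3, Fn1 and Vcan were also lowest in BSM replicate 1, and Ly6c2 was at 0 in every BSM library. The part of these cell types, of the low RNA integrity listed for that library or of its values of 0 in the receptor levels of BSM was not tested. In BSM, the sex of replicate 1 and its RNA integrity cannot be told apart. The dendritic cell markers, of which Cd209a reached 3 FPKM, summed to between 5.80 and 10.4 FPKM in BMDM and to between 1.24 and 1.42 in BSM. Cd209a, itself a C-type lectin gene listed below, had 6.29, 2.39 and 7.50 FPKM of this in BMDM. Of the other dendritic cell markers, Flt3, Xcr1 and Bst2 had the higher mean FPKM in BMDM, and Zbtb46, Itgax, Ccr9 and Batf3 had it in BSM.

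Because the summed FPKM differed between the groups, the libraries were also scaled in 3 further ways. The median log2 fold change of all genes was then 0.18 (upper quartile scaling), 0.02 (quantile normalization) or -0.23 (the same sum in every library). Clec12a, Clec4a1, Clec7a and Clec10a were called higher in BMDM in both tables under every alternative run, with FPKM log2 fold changes of at least 4.50 for Clec12a, 4.82 for Clec4a1, 2.34 for Clec7a and 1.52 for Clec10a. Apart from the fits with a lower minimum or none, the alternatives kept the same set of genes. Those calls thus stay tied to the entry of these receptors through BMDM. After upper quartile scaling 5 of the 7 receptors were higher in BMDM, where 21.9% of all genes were, and none in BSM, where 15.9% were. Quantile normalization left 5 of 7 higher in BMDM, beside 21.7%, and none in BSM, beside 19.3%. With the same sum in every library 4 of 7 were higher in BMDM, beside 15.2%, and 1 in BSM, beside 24.9%. Clec4a3 had a log2 fold change of 0.45 (limma adjusted p = 0.276) under that last scaling and was called under the other 2. Clec5a moved to -0.72 (limma adjusted p = 0.082) with upper quartile scaling, to -0.71 (limma adjusted p = 0.0728) with quantile normalization and to -1.21 (limma adjusted p = 0.00848) with the same sum, so its direction depended on the scaling.

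**Figure D3:**
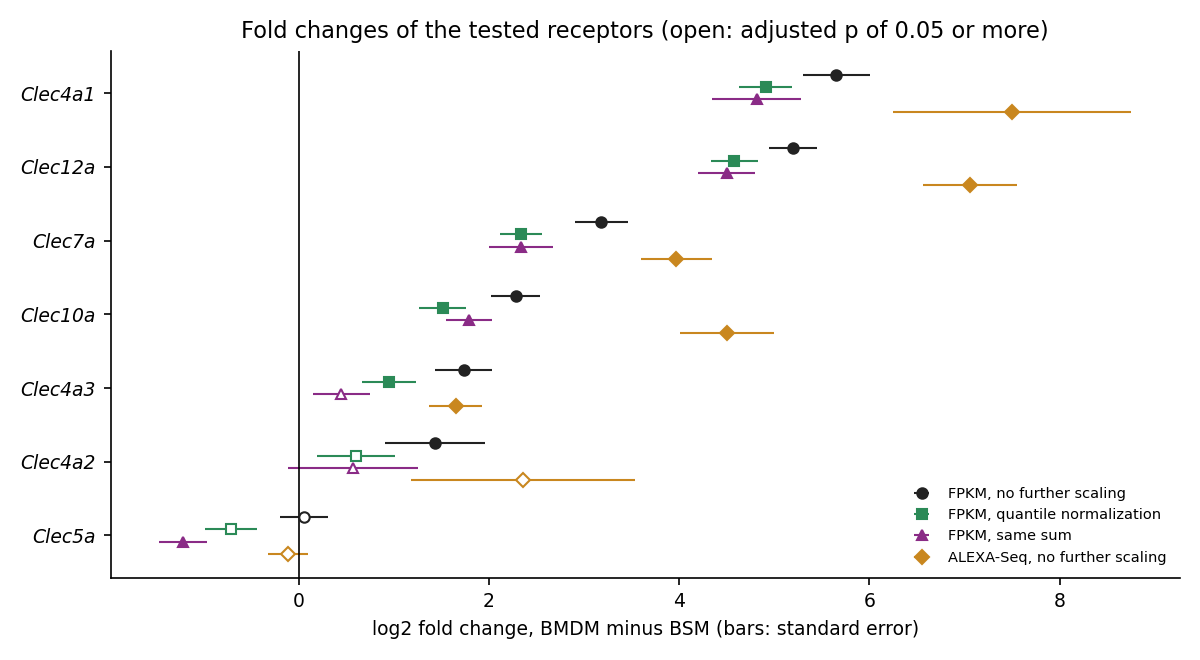
Log2 fold change between BMDM and BSM (horizontal axis, positive where BMDM is higher) of the 7 tested receptors, with standard errors as bars, for FPKM without further scaling, with quantile normalization and with the same sum, and for ALEXA-Seq. Open symbols have a limma adjusted p of 0.05 or more. Clec4a1, Clec12a, Clec7a and Clec10a lie to the right of 0 in all 4 settings, while Clec5a lies between 0.06 and -1.21.

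The signalling genes of these receptors were measured in the same libraries. Of 16 genes, 14 reached the minimum, and 10 were higher in BMDM (45.3% of all tested genes were), 1 was higher in BSM and 3 were not called, with a median log2 fold change of 1.12 against 0.81 for all genes. Some of the 14, Fgr, Bcl10 and Ptpn11 among them, reached the minimum in BMDM libraries only. By ALEXA-Seq 10 of the same 14 were higher in BMDM, beside 37.1% of all genes, and 1 in BSM, beside 10.9%. Fcer1g, the adaptor of Mincle, MCL and Dectin-2, had 255, 367 and 249 FPKM in BMDM and 48.7, 118 and 71.0 in BSM, a log2 fold change of 1.93 ± 0.34 (SE, limma adjusted p = 0.00255), 1.12 above the median of all genes. Tyrobp, the adaptor of Clec5a, had 281, 395 and 347 FPKM in BMDM and 52.8, 129 and 104 in BSM, a log2 fold change of 1.91 ± 0.35 (SE, limma adjusted p = 0.00276), 1.10 above that median. Neither adaptor had overlapping groups. Clec5a was 0.104, 0.0578 and 0.0789 times the FPKM of Tyrobp in BMDM and 0.367, 0.239 and 0.258 times in BSM, so receptor per adaptor transcript was higher in each BSM library, with p = 0.1 in an exact permutation test of 3 against 3 libraries, the smallest p it allows. Hcst, encoding the related adaptor DAP10, reached at most 0.503 FPKM.

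Downstream, Syk, the kinase that binds the phosphorylated adaptors, had a log2 fold change of 1.02 ± 0.24 (SE, limma adjusted p = 0.00868), 0.21 above the median of all genes, while the Src-family kinase Lyn (0.25, limma adjusted p = 0.417), the exchange factor Vav1 (0.12, limma adjusted p = 0.705) and Bcl10 (0.77, limma adjusted p = 0.0511) were not called. Card9, which links Syk to NF-kappaB in Dectin-1 signalling, reached at most 0.444 FPKM in any library. Among the phosphatases, Ptpn6 (SHP-1) had 17.1, 29.4 and 18.9 FPKM in BMDM and 2.66, 6.84 and 5.96 in BSM, and Ptpn11 (SHP-2) 2.70, 3.47 and 3.74 in BMDM and 0.643, 1.43 and 1.36 in BSM. Their log2 fold changes were 1.93 (limma adjusted p = 0.00314) and 1.02 (limma adjusted p = 0.0156), 1.12 and 0.21 above the median of all genes. Inpp5d, encoding the lipid phosphatase SHIP1, was the gene called higher in BSM, with 4.73, 7.36 and 6.17 FPKM in BMDM and 53.2, 12.5 and 11.1 in BSM. Its log2 fold change was -1.56 ± 0.55 (SE, limma adjusted p = 0.0425), or -2.37 relative to the median of all genes. Without BSM replicate 1 it was -0.87 (limma adjusted p = 0.013). The call did not hold when any one of the BMDM libraries was left out, with limma adjusted p of 0.135, 0.0943 and 0.106. It was also lost with a pseudocount of 0.1 (limma adjusted p = 0.0509), with the replicate number as a block (limma adjusted p = 0.0507) and without a minimum (limma adjusted p = 0.144). After scaling to the same sum, 1 of the 14 signalling genes was called higher in BMDM, beside 15.2% of all genes, and 3 in BSM, beside 24.9%, and the log2 fold changes of Fcer1g and Tyrobp were 0.62 and 0.60 (limma adjusted p = 0.153 and 0.183).

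**Figure D4:**
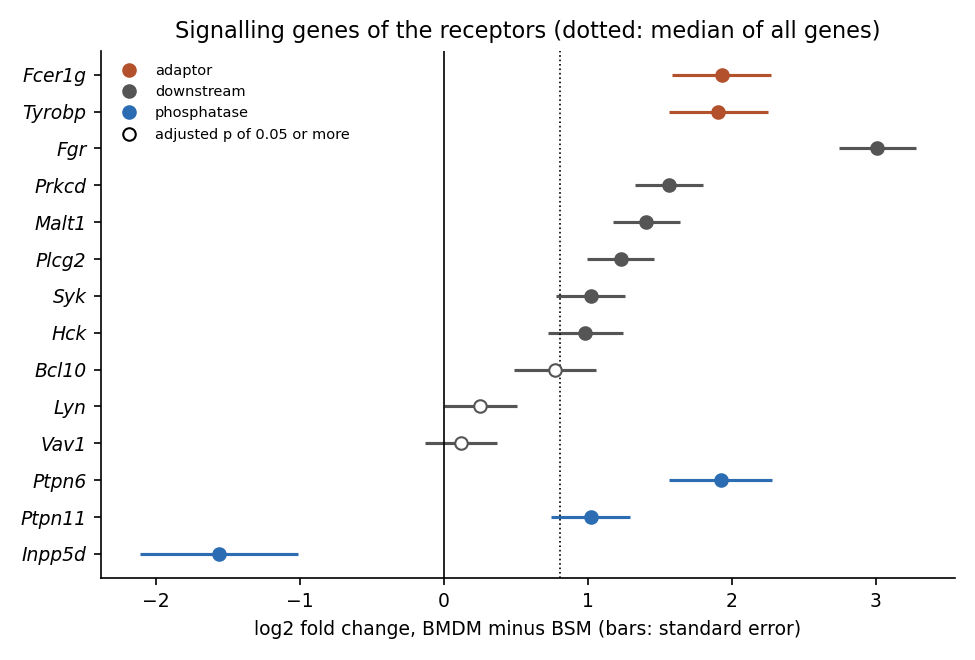
Log2 fold change between BMDM and BSM (horizontal axis, positive where BMDM is higher; bars are standard errors) of the 14 tested signalling genes, coloured as adaptors, downstream genes and phosphatases, with a dotted line at the median of all genes of 0.81. Open symbols have a limma adjusted p of 0.05 or more. Fgr, Fcer1g, Ptpn6 and Tyrobp lie farthest to the right, and Inpp5d lies to the left of 0.

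Of 36 other genes with a C-type lectin-like domain, 26 did not reach the minimum, 5 of the 36 being at 0 in every library. Of the 10 tested, 6 were higher in BMDM (45.3% of all tested genes were), 1 was higher in BSM and 3 were not called. Those higher in BMDM were Klrb1f (log2 fold change 3.79), Clec2i (3.04), Cd209a (2.56), Clec2g (2.12), Clec2d (2.05) and Cd302 (0.88). All of these reached the minimum in BMDM libraries only. Mrc2, encoding the collagen receptor Endo180, was the one higher in BSM, with 0.0326 FPKM in BMDM replicate 1, 0 in the other 2 BMDM libraries, and 13.5, 1.62 and 1.34 in BSM. Its log2 fold change of -2.14 ± 0.67 (SE, limma adjusted p = 0.0271) was -1.29 without BSM replicate 1, and the call was lost when any one of the BMDM libraries was left out, with limma adjusted p of 0.0757, 0.0828 and 0.0764, and without a minimum (limma adjusted p = 0.104). Clec4b2, Mgl2 and Olr1 were not called. Clec4b2 had its highest value, 4.78 FPKM, in BMDM replicate 2, against 0.230 and 0.973 in BMDM replicates 1 and 3, so this neighbour of the receptors was highest in the library with the highest granulocyte and lymphocyte marker sums, whose part in it was not tested.

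The levels were also set beside the position of the genes within the clusters, and no trend with position was tested. The Dectin-2 cluster spanned 368 kb from Clec4a1 to Clec4e and held 11 listed entries, of which 9 were Clec genes. Clec4a3 began 30.7 kb from the start of Clec4a1, and the next gene, Clec4a4, at 68.5 kb, had at most 0.0858 FPKM in any library. Clec4a2 at 201.5 kb was again measured in both groups, and the 3 genes at 308 kb and beyond were the Clec genes of the cluster listed at 0 in every BSM library. The Dectin-1 cluster spanned 130.1 kb and 6 entries, with Clec12a at one end and Clec7a at the other, both higher in BMDM. The 4 genes between them, Clec12b, Clec1b, Clec9a and Clec1a, stayed below 3 FPKM in every library. No receptor locus overlapped another listed entry.

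**Figure D5:**
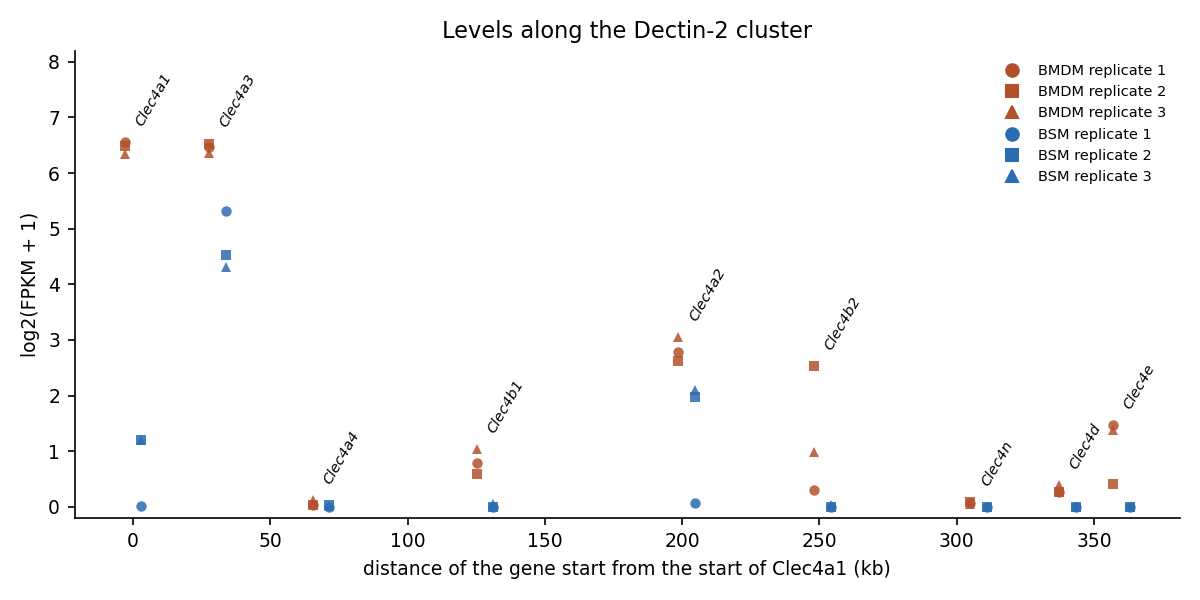
Level as log2(FPKM + 1) on the vertical axis against the distance of each gene's start from the start of Clec4a1 in kb, for the 9 Clec genes of the Dectin-2 cluster in the 3 BMDM (brown) and 3 BSM (blue) libraries. High levels are at the left end in Clec4a1 and Clec4a3, and Clec4a3 and Clec4a2 are the genes of the cluster with the highest BSM values.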

How the data were processed

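RNA-Seq libraries of FACS-sorted BMDM (n = 3) and BSM (n = 3) were analysed, grouped by their labels. The submitters' processing notes name the build mm9 and CASAVA 1.7.0, TopHat 1.3.1, Bowtie 0.12.7 and Cufflinks 1.0.3. The authors deposited FPKM per gene from Cufflinks, and an ALEXA-Seq expression signal per gene on a linear scale whose unit is not given in the sources used here. The supplement of the study lists mapped reads for each library, of similar size in all 6, but neither table holds reads per gene, so the counts behind a single value are unknown, and a listed 0 can be a failed estimate: Itgam, which encodes a sort marker, is at 0 in BSM replicate 2. Amplification of the RNA before sequencing can change relative transcript levels.

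FPKM were compared on log2(FPKM + 1) with limma 3.58.1 in R 4.3.3 (moderation with a mean-variance trend, two-sided, Benjamini-Hochberg adjustment) over the 6364 genes with at least 3 FPKM in at least 1 library, called at an adjusted p under 0.05. As many genes, by highest ALEXA-Seq signal, were tested alike. Fold changes on this scale understate those of low genes. An exact permutation test of 3 against 3 libraries cannot go below a two-sided p of 0.1. P-values measure the spread between pools of mice. The model was tested on simulated data. The alternatives were a pseudocount of 0.1, a minimum of 1 FPKM or none, 3 further scalings, no trend, library weights, sex or the replicate number as a term, and leaving out each library in turn.

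All 10 receptors, the adaptors, phosphatases and genes in the BSM direction of the signalling list, and the other lectin genes past the minimum were to be named, with Syk, Lyn, Vav1, Bcl10, Card9 and Fgr and the genes below the minimum within the clusters added after their values were seen. The receptors and lists were chosen with earlier results of these data known. Of the microglia marker list, 1 gene is not reported here. Near-identical copies were matches of at least 100 bases at 95% identity by blastn 2.17.0 among GENCODE M21 transcripts. Promoter windows came from RefSeq (GRCm38.p6), and their coordinates are not comparable with the mm9 gene positions. Tables were handled with Python 3.11.15 and pandas 2.3.3, and plots were drawn with matplotlib 3.10.9.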

Additional observations from a re-analysis of the deposited data

How the results depend on the processing

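The receptors called higher in BMDM by FPKM numbered between 4 and 7 under all alternatives, and Clec12a, Clec4a1, Clec7a and Clec10a were among them each time. These named receptors reached 3 FPKM in BMDM libraries only, and most alternatives kept that minimum, so their calls there are not independent of it. By ALEXA-Seq the 5 called receptors became 8 without a minimum, where 2406 of 22980 genes were called higher in BMDM, against 2359 of 6364 in the main fit. The signalling genes called by FPKM went from 11 to 7 with upper quartile scaling and to 4 with the same sum in every library. Clec5a, at 0.06 by FPKM, changed sign to -0.72 with upper quartile scaling, -0.71 with quantile normalization, -1.21 with the same sum and -0.10 with library quality weights, and ranged from -0.13 to 0.19 when single libraries were left out. By ALEXA-Seq its log2 fold change ranged from -0.25 to 0.0096 when single libraries were left out, and it was called higher in BSM with quantile normalization (-0.82), the same sum (-1.39) and library weights (-0.28). The cause of these shifts was not tested. Scaling also moved the split over all genes, from 2883 higher in BMDM and 587 in BSM to 1394 and 1010 (upper quartile), 1378 and 1227 (quantile) and 968 and 1585 (same sum). With the replicate block 6 receptors and 3471 genes were called, against 3470 without it. Deviations of same-numbered libraries correlated at -0.02, -0.01 and 0.13, so the numbers were not taken to pair the libraries, and not every library correlated best with its own number. The counts behind single values are unknown, so the precision of values near 0 FPKM is unknown.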
